A study of Canis lupus familiaris with 18 samples.

Results

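The genes of fatty acid uptake and oxidation were followed in dog heart as heart failure (HF) developed. The list holds 39 genes, grouped here by their known roles: 8 of uptake and activation, 5 of the carnitine shuttle, 8 of the first dehydrogenation and its electron transfer, 13 of the later oxidation steps and 5 regulators. Of these, 36 had a probe set whose platform annotation gave that symbol alone, and 34 of the 10988 genes tested were members. Each gene was read from its probe set of highest mean signal. SLC25A20, ACOT2 and ACACB had no such probe set. SLC27A6 and ACSL4 averaged 4.37 and 4.05 log2 signal over all arrays, under the limit of 5.31 below which probe sets were not tested.

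The data are 18 Affymetrix Canine_2 arrays of total RNA, 3 for each of 6 groups: right atrium (RA) and right ventricle (RV), each from control dogs and from dogs in early HF and in late HF. The labels say no more of how the controls were kept. Failure was made by pacing the ventricles continuously at a high rate, for 2 weeks in the early group and 5 weeks in the late group (2 to 3 and 5 to 6 weeks in the protocol text). The animals were adult mongrels or beagles, and the labels give neither the breed nor the identity of each dog, so p-values measure only the spread between these samples. The precision is limited by 3 arrays a group. All values are log2 signal, so a difference of 1 is a 2-fold change, and levels of different genes are not compared because probe sets differ in their response.

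Long-chain fatty acids are the main fuel of the working heart. They are released from lipoproteins, carried into the myocyte, bound to coenzyme A, passed into mitochondria through the carnitine shuttle, and shortened in repeated rounds of oxidation whose electrons enter the respiratory chain. Malonyl-CoA holds back entry at the carnitine step, and the nuclear receptor PPARA with its coactivator PPARGC1A drives transcription of many genes of the pathway.

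The array labelled RA late HF 3 went against its label for most chamber markers but not for all. On it the ventricular light chains MYL2 and MYL3 read 14.17 and 13.89, against 10.59 to 10.99 and 8.81 to 9.22 on the other RA late HF arrays, and the atrial light chain MYL7 read 11.65, against 13.72 and 13.99. The atrial marker GJA5 instead read 8.74, within the 8.46 to 9.21 of other RA arrays and above the 6.47 to 7.52 of RV arrays. DKK3, another atrial marker, read 9.17, between the RV arrays (6.16 to 8.53) and the other RA arrays (12.05 to 12.76). Of the 34 members, 24 on this array lay nearer the RV control mean than the RA control mean, against 7 and 4 on the other RA late HF arrays. It is kept in the values below under its label, and results are also given without it, including those of other groups, since all groups share an estimate of spread. The chamber markers differed on other arrays too. MYL2 read 9.73 to 12.06 in RA early HF, against 6.51, 6.04 and 9.38 in RA controls, and MYL3 9.04 to 10.86 in RA early HF, against 7.59 to 7.97 in RA controls. The ventricular marker MYOZ2 also lay above control there, at 12.62 to 12.79 against 12.27 to 12.41. The other ventricular markers IRX4, IRX5 and HAND1 overlapped, with IRX5 at 4.72 to 5.59 in RA early HF and 5.02 to 5.24 in RA controls. Without the array RA late HF 3, MYL2 was higher than in RA control at 3.46 in early HF and 3.48 in late HF (adjusted p = 0.0126 and 0.0336), and MYL3 in early HF at 1.89 (adjusted p = 0.0171). The array RV late HF 1 was low for MYL2 and MYL3, at 12.76 and 12.35, and high for MYL7, at 13, and no count of called members changed without it. The part of these chamber markers in the members' differences was not tested. Myocyte markers were detected on every array, with TNNT2 between 13.13 and 13.75, TTN between 11.87 and 13.67 and RYR2 between 10.92 and 12.46, TTN and RYR2 being lowest on RA late HF 1. RNA quality was read from GAPDH, whose 3' minus 5' probe set signal had group means between 1.28 and 1.46 for the RA groups, with RA early HF the highest, and between 1.17 and 1.36 for the RV groups, with SDs of 0.10 to 0.25.

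Several members were lower in RA than in RV in controls and in early HF, and with all arrays no member passed the test of HF against control in either chamber. In controls, 5 of 34 members were lower in RA and 0 higher, where 1.07% of all genes tested were called lower and 1.62% higher. The 5 were CD36, FABP3, ETFB, ETFDH and MLYCD. In early HF, 8 members were lower in RA and 0 higher, where 2.59% of all genes were called lower and 3% higher: CD36, LPL, ACADS, ACADVL, ETFB, HADH, ACAT1 and MLYCD. A call here means an adjusted p under 0.05 in limma.

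**Figure D1:**
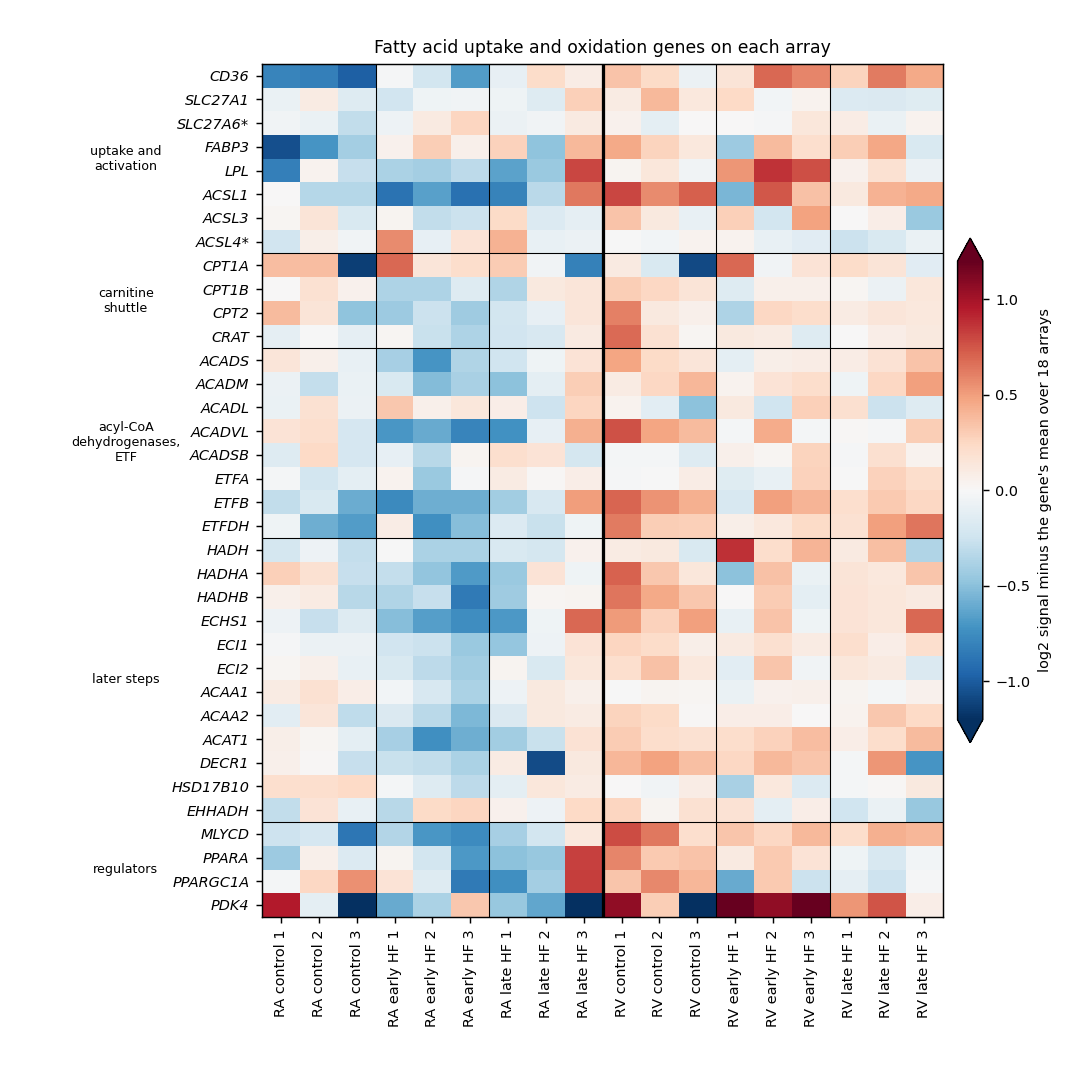
log2 signal of each gene minus its own mean over the 18 arrays (colour scale cut at -1.2 and 1.2), with genes grouped by role down the page, arrays in columns and RA left of RV. Asterisks mark SLC27A6 and ACSL4, which were under the signal limit and not tested. Blue, below the gene's mean, prevails on the RA early HF arrays and red on the RV control arrays, while the array RA late HF 3 is red for most genes and dark blue for CPT1A and PDK4.

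Of uptake and activation, CD36, a fatty acid transporter of the cell membrane, differed most clearly by chamber. CD36 in RA measured 9.46, 9.43 and 9.27 in controls, 10.23, 10.03 and 9.58 in early HF, and 10.15, 10.47 and 10.34 in late HF. RV arrays gave CD36 10.59, 10.48 and 10.18 in controls, 10.40, 10.94 and 10.83 in early HF, and 10.52, 10.87 and 10.70 in late HF. All RA control arrays lay below all RV control arrays, and in RA both HF groups lay above the controls without overlap. CD36 was 2.04-fold lower in RA than in RV in controls, at -1.03 (SE 0.17, adjusted p = 0.00413), and 1.71-fold lower in early HF, at -0.78 (SE 0.17, adjusted p = 0.0173). In late HF the difference was -0.38 (SE 0.17, adjusted p = 0.419). Within RA, CD36 stood at 0.56 (SE 0.17, adjusted p = 0.136) in early HF and 0.93 (SE 0.17, adjusted p = 0.0597) in late HF against control, and the late difference passed without the array RA late HF 3, at 0.92 (SE 0.20, adjusted p = 0.0306). In RV the same differences were 0.31 and 0.28, neither past the test.

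FABP3, which carries fatty acids through the cytosol of heart and muscle, separated the chambers in controls. FABP3 in RA measured 11.30, 11.65 and 11.95 in controls, 12.41, 12.65 and 12.42 in early HF, and 12.63, 11.87 and 12.74 in late HF. RV arrays gave FABP3 12.81, 12.62 and 12.48 in controls, 11.92, 12.73 and 12.56 in early HF, and 12.65, 12.82 and 12.17 in late HF. All RA control arrays lay below all RV control and RA early HF arrays, while 1 RA late HF array and 1 RV early HF array fell within the RA control range. FABP3 was 2-fold lower in RA controls than in RV controls, at -1.003 (SE 0.24, adjusted p = 0.0337), while the chamber difference was 0.09 (SE 0.24, adjusted p = 0.899) in early HF. The RA early HF difference from control was 0.86 (SE 0.24, adjusted p = 0.102). The second FABP3 probe set gave -0.79 in the control chamber comparison (adjusted p = 0.0811), so the call depends on the probe set.

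LPL, the lipase that frees fatty acids from lipoproteins at the capillary wall, differed by chamber in early HF. LPL in RA measured 9.57, 10.43 and 10.11 in controls, 10.01, 9.98 and 10.08 in early HF, and 9.75, 9.95 and 11.19 in late HF. RV arrays gave LPL 10.42, 10.53 and 10.35 in controls, 10.92, 11.26 and 11.16 in early HF, and 10.44, 10.57 and 10.32 in late HF. The RV early HF arrays lay above the RV controls and RV late HF arrays without overlap, and only the array RA late HF 3 reached them. LPL was 2.13-fold lower in RA early HF than in RV early HF, at -1.09 (SE 0.27, adjusted p = 0.0274). The RV early HF difference from control, 0.68 (SE 0.27, adjusted p = 0.479), did not pass.

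ACSL1, the main long-chain acyl-CoA synthetase of the heart, had wide differences that missed the threshold with all arrays. ACSL1 in RA measured 10.76, 10.41 and 10.41 in controls, 9.87, 10.10 and 9.86 in early HF, and 9.95, 10.43 and 11.39 in late HF. RV arrays gave ACSL1 11.56, 11.32 and 11.47 in controls, 10.21, 11.50 and 11.11 in early HF, and 10.87, 11.17 and 11.21 in late HF. RA lay below RV without overlap in controls and in early HF, although 1 RV early HF array was lower than the RA controls. The chamber difference was -0.92 (SE 0.31, adjusted p = 0.121) in controls and -0.997 (SE 0.31, adjusted p = 0.0683) in early HF, and both passed without the array RA late HF 3 (adjusted p = 0.0276 and 0.0121). Both other ACSL1 probe sets were called lower in RA controls, at -0.70 and -1.09 (adjusted p = 0.0194 and 0.0435). In RA early HF the ACSL1 difference from control was -0.58 with this probe set and -0.47 with a second, and was near 0 with the third, none of which passed.

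SLC27A1, a fatty acid transport protein with synthetase activity, was called in no comparison. SLC27A1 in RA measured 7, 7.18 and 6.93 in controls, 6.85, 7.03 and 7.04 in early HF, and 7.03, 6.93 and 7.37 in late HF. RV arrays gave SLC27A1 7.18, 7.47 and 7.21 in controls, 7.32, 7.05 and 7.12 in early HF, and 6.92, 6.91 and 6.94 in late HF. The RV late HF arrays lay below both other RV groups without overlap, with a difference from control of -0.36 (SE 0.12, adjusted p = 0.432). ACSL3, another synthetase, differed by -0.35 to 0.11 between the chambers at the 3 stages, with overlap in each. SLC27A6, a transport protein known from heart, ranged over all arrays from 4.07 to 4.63 and ACSL4, a synthetase that prefers arachidonate, from 3.79 to 4.62, which is near background.

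No member of the carnitine shuttle passed the test in any comparison. CPT1B, the muscle form of the outer-membrane enzyme that makes acylcarnitine, in RA measured 9.97, 10.15 and 10.02 in controls, 9.59, 9.59 and 9.81 in early HF, and 9.60, 10.08 and 10.11 in late HF. RV arrays gave CPT1B 10.26, 10.21 and 10.12 in controls, 9.81, 10.03 and 10.03 in early HF, and 9.99, 9.89 and 10.10 in late HF. Early HF lay below control in both chambers without overlap, by -0.38 (SE 0.13, adjusted p = 0.176) in RA and -0.24 (SE 0.13, adjusted p = 0.68) in RV. CPT2, which reforms acyl-CoA at the inner membrane, in RA measured 9.12, 8.90 and 8.26 in controls, 8.31, 8.48 and 8.32 in early HF, and 8.52, 8.64 and 8.89 in late HF. RV arrays gave CPT2 9.35, 8.86 and 8.80 in controls, 8.37, 8.99 and 8.95 in early HF, and 8.84, 8.89 and 8.87 in late HF. The CPT2 groups overlapped except late and early HF in RA, which differed by 0.31 (SE 0.21, adjusted p = 0.757). CRAT, which handles short acyl groups, lay lower in RA controls than RV controls without overlap, at -0.37 (SE 0.15, adjusted p = 0.218). CPT1A, the form known best from liver, was lowest on the third control array of both chambers, at 6.74 in RA and 6.78 in RV, against 7.06 to 8.56 on all other arrays. These CPT1A values were picked after they were seen.

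Among the acyl-CoA dehydrogenases, which take the first step of each round, the very-long-chain enzyme ACADVL had the largest chamber difference. ACADVL in RA measured 12.26, 12.30 and 11.89 in controls, 11.40, 11.49 and 11.30 in early HF, and 11.37, 12 and 12.52 in late HF. RV arrays gave ACADVL 12.86, 12.57 and 12.47 in controls, 12.07, 12.54 and 12.07 in early HF, and 12.11, 12.08 and 12.39 in late HF. RA early HF was the lowest group, below RA control and RV early HF without overlap. ACADVL was 1.78-fold lower in RA than in RV in early HF, at -0.83 (SE 0.22, adjusted p = 0.0341). Against RA control, RA early HF stood at -0.75 (SE 0.22, adjusted p = 0.111), which passed without the array RA late HF 3 (adjusted p = 0.0247). RV late HF also lay below RV control without overlap, at -0.44 (SE 0.22, adjusted p = 0.559). A second ACADVL probe set gave -0.97 between the chambers in early HF and did not pass (adjusted p = 0.0726).

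The short-chain enzyme ACADS in RA measured 8.89, 8.80 and 8.65 in controls, 8.34, 8.03 and 8.38 in early HF, and 8.50, 8.69 and 8.90 in late HF. RV arrays gave ACADS 9.21, 8.97 and 8.89 in controls, 8.62, 8.81 and 8.83 in early HF, and 8.83, 8.91 and 9.08 in late HF. RA early HF lay below RA control, RA late HF and RV early HF without overlap. ACADS was 1.42-fold lower in RA early HF than in RV early HF, at -0.50 (SE 0.13, adjusted p = 0.037). The RA early HF difference from control was -0.53 (SE 0.13, adjusted p = 0.0714), and it too passed without the array RA late HF 3 (adjusted p = 0.0321). The other ACADS probe sets tested gave -0.25 and -0.56 between the chambers in early HF and did not pass.

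The medium-chain enzyme ACADM in RA measured 12.56, 12.35 and 12.55 in controls, 12.45, 12.11 and 12.24 in early HF, and 12.14, 12.51 and 12.93 in late HF. RV arrays gave ACADM 12.73, 12.88 and 13.03 in controls, 12.67, 12.80 and 12.84 in early HF, and 12.58, 12.88 and 13.12 in late HF. RA and RV did not overlap in controls or in early HF, with RA minus RV differences of -0.39 (SE 0.17, adjusted p = 0.252) and -0.50 (SE 0.17, adjusted p = 0.0972). Both other ACADM probe sets were called lower in RA in early HF, at -0.82 and -0.85 (adjusted p = 0.0414 and 0.0303), and 1 of them in controls, at -0.89 (adjusted p = 0.0354). ACADL, the long-chain enzyme, and ACADSB, which acts on short branched chains, differed between the chambers by -0.25 to 0.20 over the 3 stages, with overlap throughout.

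The electron transfer flavoprotein takes electrons from these dehydrogenases and ETFDH hands them to ubiquinone. ETFB, its beta subunit, in RA measured 9.50, 9.61 and 9.20 in controls, 9.03, 9.21 and 9.21 in early HF, and 9.38, 9.60 and 10.30 in late HF. RV arrays gave ETFB 10.49, 10.33 and 10.22 in controls, 9.60, 10.29 and 10.20 in early HF, and 10, 10.11 and 10.04 in late HF. RA lay below RV without overlap in controls and in early HF, and the array RA late HF 3 lay within the RV range. ETFB was 1.88-fold lower in RA controls, at -0.91 (SE 0.21, adjusted p = 0.0252), and 1.84-fold lower in RA early HF, at -0.88 (SE 0.21, adjusted p = 0.0201). Its only probe set is of a kind that can match several transcripts.

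ETFDH in RA measured 10.72, 10.19 and 10.10 in controls, 10.86, 10.04 and 10.26 in early HF, and 10.61, 10.51 and 10.72 in late HF. RV arrays gave ETFDH 11.40, 11.07 and 11.06 in controls, 10.84, 10.90 and 11 in early HF, and 10.96, 11.27 and 11.42 in late HF. All ETFDH values in RA lay below those in RV in controls and in late HF, whereas 1 RA early HF array reached the RV early HF range. ETFDH was 1.79-fold lower in RA controls, at -0.84 (SE 0.20, adjusted p = 0.0287), and differed by -0.53 (SE 0.20, adjusted p = 0.137) in early HF and -0.60 (SE 0.20, adjusted p = 0.319) in late HF. The 3 other ETFDH probe sets gave -0.59 to -1.23 in controls, 2 of them called. ETFA, the alpha subunit, in RA measured 11.40, 11.21 and 11.31 in controls, 11.47, 10.98 and 11.41 in early HF, and 11.53, 11.44 and 11.51 in late HF. RV arrays gave ETFA 11.41, 11.42 and 11.52 in controls, 11.28, 11.34 and 11.70 in early HF, and 11.42, 11.70 and 11.64 in late HF. For ETFA the chamber difference in controls was -0.14 (SE 0.13, adjusted p = 0.662), and RA late HF lay above RA control without overlap, at 0.19 (SE 0.13, adjusted p = 0.615).

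Of the later steps, ACAT1, the mitochondrial acetoacetyl-CoA thiolase, had the smallest adjusted p among the members in early HF. ACAT1 in RA measured 10.82, 10.77 and 10.63 in controls, 10.35, 10.01 and 10.16 in early HF, and 10.33, 10.48 and 10.92 in late HF. RV arrays gave ACAT1 11.05, 10.96 and 10.93 in controls, 10.96, 11.02 and 11.12 in early HF, and 10.83, 10.96 and 11.13 in late HF. RV arrays stayed between 10.83 and 11.13 at all stages, and RA early HF lay below every RA control and RV array. ACAT1 was 1.81-fold lower in RA than in RV in early HF, at -0.86 (SE 0.14, adjusted p = 0.00305). A second ACAT1 probe set gave -0.99 (adjusted p = 0.00508). The difference between RA early HF and control, -0.57 (SE 0.14, adjusted p = 0.0623), missed the threshold and passed without the array RA late HF 3 (adjusted p = 0.0107). Without that array ACAT1 was also lower in RA late HF than in RV late HF, at -0.57 (SE 0.12, adjusted p = 0.0188), against -0.40 (SE 0.14, adjusted p = 0.346) with it.

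HADH, which oxidises medium and short hydroxyacyl-CoA, in RA measured 11.07, 11.22 and 10.99 in controls, 11.27, 10.90 and 10.90 in early HF, and 11.10, 11.07 and 11.33 in late HF. RV arrays gave HADH 11.38, 11.40 and 11.10 in controls, 12.16, 11.49 and 11.69 in early HF, and 11.39, 11.64 and 10.92 in late HF. The RV early HF arrays lay above the RV controls and above RA early HF without overlap. HADH was 1.69-fold lower in RA than in RV in early HF, at -0.76 (SE 0.18, adjusted p = 0.0241), and a second probe set gave -0.95 (adjusted p = 0.0122). The RV early HF difference from control was 0.49 (SE 0.18, adjusted p = 0.428).

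HADHA and HADHB form the trifunctional protein that carries out the later steps on long chains. HADHA in RA measured 11.51, 11.41 and 10.95 in controls, 10.94, 10.75 and 10.54 in early HF, and 10.78, 11.39 and 11.17 in late HF. RV arrays gave HADHA 11.93, 11.55 and 11.36 in controls, 10.73, 11.57 and 11.14 in early HF, and 11.38, 11.35 and 11.56 in late HF. RA early HF lay below RA control, with the difference at -0.55 (SE 0.21, adjusted p = 0.247). HADHB in RA measured 12.03, 12.06 and 11.63 in controls, 11.60, 11.69 and 11.12 in early HF, and 11.54, 11.99 and 12 in late HF. RV arrays gave HADHB 12.61, 12.42 and 12.29 in controls, 11.97, 12.27 and 11.85 in early HF, and 12.13, 12.10 and 12.07 in late HF. HADHB in RA lay below RV without overlap at every stage, at -0.53 in controls, -0.56 in early HF and -0.26 in late HF (adjusted p = 0.104, 0.0627 and 0.554).

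HSD17B10, a mitochondrial dehydrogenase of branched acyl-CoA, in RA measured 10.55, 10.55 and 10.58 in controls, 10.32, 10.19 and 10.03 in early HF, and 10.23, 10.48 and 10.44 in late HF. RV arrays gave HSD17B10 10.35, 10.30 and 10.43 in controls, 9.96, 10.47 and 10.18 in early HF, and 10.32, 10.36 and 10.46 in late HF. Its RA controls lay above both RA HF groups and above the RV controls, by 0.20 (SE 0.12, adjusted p = 0.458) in the chamber comparison. EHHADH, a peroxisomal enzyme of the pathway, in RA measured 8.84, 9.30 and 9.04 in controls, 8.80, 9.36 and 9.39 in early HF, and 9.18, 9.07 and 9.37 in late HF. RV arrays gave EHHADH 9.39, 9.17 and 9.32 in controls, 9.31, 9.02 and 9.21 in early HF, and 8.89, 9.05 and 8.68 in late HF. RV late HF lay below RV control for EHHADH, at -0.42 (SE 0.16, adjusted p = 0.476), and below RA late HF.

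The other later-step genes were ECHS1, the short-chain enoyl-CoA hydratase, ECI1 and ECI2, isomerases for unsaturated chains, DECR1, a reductase for the same chains, and the thiolases ACAA1 (peroxisomal) and ACAA2 (mitochondrial). None was called with all arrays. In early HF their RA minus RV differences ran from -0.71 for ECHS1 to -0.21 for ACAA1, and ECHS1 and ECI1 passed without the array RA late HF 3 (adjusted p = 0.0158 and 0.0171). The third ECHS1 probe set gave -0.09 in that comparison. Another ACAA1 probe set was called lower in RA early HF than in RA control, at -0.62 (adjusted p = 0.0418), where the one of highest signal gave -0.32 (SE 0.10, adjusted p = 0.131). DECR1 had single low arrays of 9.31 in RA late HF and 9.67 in RV late HF, against 10 to 10.91 on the rest, a pattern picked after the values were seen.

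Of the regulators, MLYCD, which breaks down malonyl-CoA, was lower in RA. MLYCD in RA measured 9.82, 9.87 and 9.21 in controls, 9.72, 9.37 and 9.32 in early HF, and 9.67, 9.85 and 10.20 in late HF. RV arrays gave MLYCD 10.86, 10.71 and 10.27 in controls, 10.41, 10.32 and 10.46 in early HF, and 10.28, 10.50 and 10.47 in late HF. RA lay below RV without overlap at all 3 stages. MLYCD was 1.97-fold lower in RA in controls, at -0.98 (SE 0.19, adjusted p = 0.00966), and 1.9-fold lower in early HF, at -0.93 (SE 0.19, adjusted p = 0.0111), and the late HF difference was -0.51 (SE 0.19, adjusted p = 0.366). A second MLYCD probe set gave -0.91 in controls and -0.72 in early HF (adjusted p = 0.0123 and 0.0289). HF against control stood between -0.22 and 0.27 over both chambers and stages.

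PPARA in RA measured 6.87, 7.37 and 7.15 in controls, 7.34, 7.09 and 6.62 in early HF, and 6.82, 6.86 and 8.13 in late HF. RV arrays gave PPARA 7.90, 7.62 and 7.65 in controls, 7.42, 7.62 and 7.47 in early HF, and 7.26, 7.12 and 7.28 in late HF. RA stood below RV without overlap in controls and early HF, at -0.59 (SE 0.26, adjusted p = 0.27) and -0.49 (SE 0.26, adjusted p = 0.349), and the array RA late HF 3 had the highest PPARA value of all. RV late HF lay below RV control, at -0.50 (SE 0.26, adjusted p = 0.579). A second PPARA probe set gave 0.05 between the chambers in early HF. PPARGC1A in RA measured 9.32, 9.60 and 9.90 in controls, 9.51, 9.19 and 8.50 in early HF, and 8.61, 8.94 and 10.18 in late HF. RV arrays gave PPARGC1A 9.68, 9.92 and 9.75 in controls, 8.74, 9.66 and 9.09 in early HF, and 9.24, 9.10 and 9.33 in late HF. Both RV HF groups lay below RV control for PPARGC1A, at -0.62 (SE 0.33, adjusted p = 0.669) in early HF and -0.56 (SE 0.33, adjusted p = 0.616) in late HF, and neither passed. In RA the PPARGC1A difference in late HF was -0.36 with all arrays and -0.83 without the array RA late HF 3, which had the highest value.

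PDK4, the kinase that shuts off pyruvate dehydrogenase and so spares glucose, varied widely between replicates. PDK4 in RA measured 11.75, 10.68 and 7.82 in controls, 10.19, 10.42 and 11.12 in early HF, and 10.34, 10.17 and 9.26 in late HF. RV arrays gave PDK4 11.86, 11.09 and 8.91 in controls, 12.42, 11.86 and 12.69 in early HF, and 11.33, 11.55 and 10.88 in late HF. The third control array was the lowest in each chamber, and all RV early HF arrays lay above all RA early HF arrays. The chamber difference in early HF was -1.75 (SE 0.77, adjusted p = 0.229), and it passed when RA and RV arrays of the same number were paired (adjusted p = 0.00169) and with a second probe set, at -1.78 (adjusted p = 0.0488). RV early HF against control stood at 1.70 (SE 0.77, adjusted p = 0.565) and did not pass. Its 95% interval of 0.06 to 3.34 is not adjusted for the number of probe sets tested. The second probe set gave 1.38 (adjusted p = 0.401) in that comparison. The spread between PDK4 controls was wide, with an SD of 2.03 in RA and 1.53 in RV, against 0.48 in RA early HF and 0.42 in RV early HF.

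**Figure D2:**
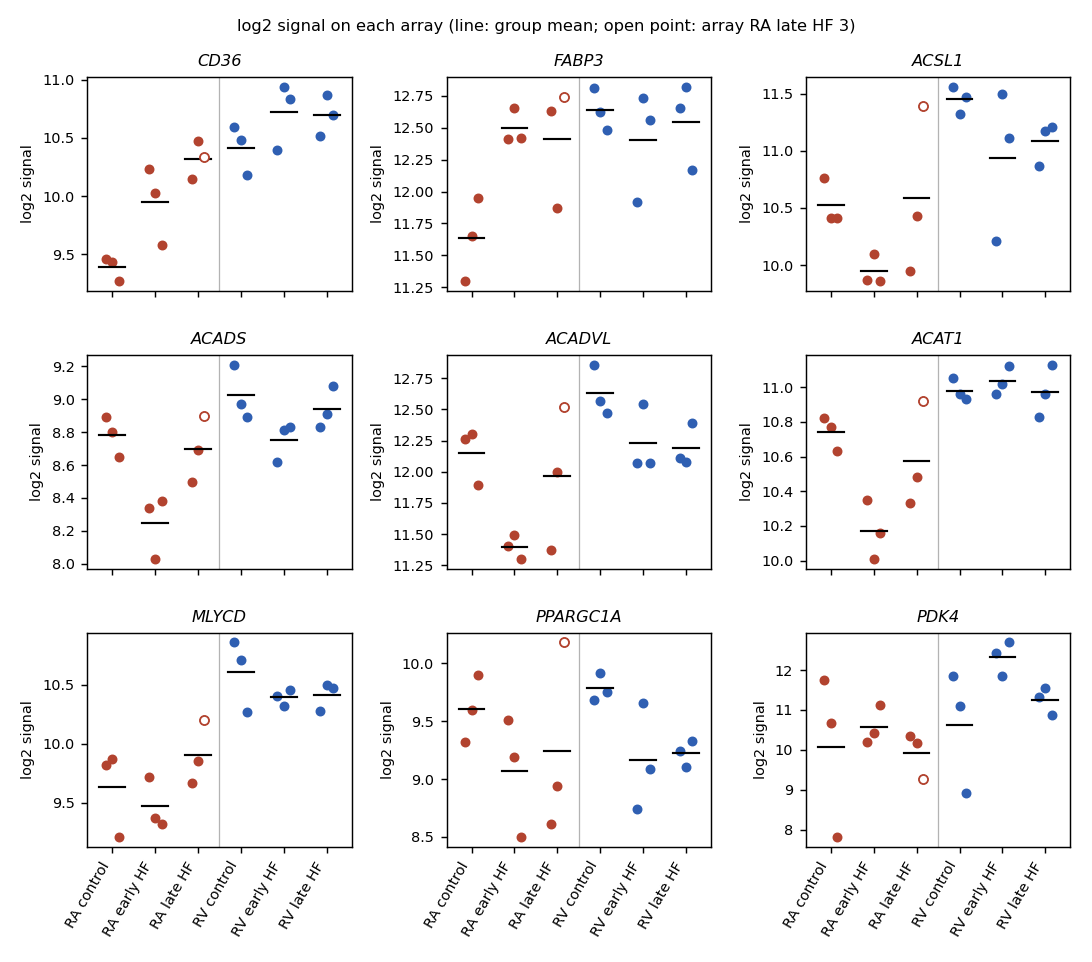
log2 signal of 9 members on every array, RA groups (red) left of RV groups (blue), each panel with its own scale. The line is the group mean of 3 arrays and the open point is the array RA late HF 3. CD36, MLYCD and ACAT1 separate the chambers in early HF, and PDK4 has 1 low control array in each chamber.

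Taking the chambers in controls over all 34 members tested, 29 had a negative RA minus RV difference, where 54.9% of all genes did. The median difference of the members was -0.26, and that of all genes tested was -0.02. RA lay wholly below RV for 17 members and wholly above for 2 (ACAA1 and HSD17B10), where 14.5% and 12.8% of all genes did so. By role, 2 of 6 uptake and activation genes, 0 of 4 shuttle genes, 2 of 8 dehydrogenase and electron transfer genes, 0 of 12 later-step genes and 1 of 4 regulators were called lower. Without the array RA late HF 3, 7 members were lower, ACSL1 and PPARA being added, against 2.11% of all genes. With RA and RV arrays of the same number paired, 7 were lower, ACSL1 and HADHB being added, against 1.5% of all genes. Leaving out 1 control array at a time ended the FABP3 call for each but RA control 3, the ETFB call for each but RA control 2, the ETFDH call for each but RA control 1, and the MLYCD call for RA control 3, RV control 1 and RV control 2. The CD36 call remained throughout.

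In early HF, 30 of 34 members had a negative RA minus RV difference, where 57.1% of all genes did, and the median was -0.42, beside -0.03 for all genes. RA lay wholly below RV for 19 members and wholly above for 0, where 11.3% and 10.9% of all genes did so. The 8 called lower were 2 of 6 uptake and activation genes, 0 of 4 shuttle genes, 3 of 8 dehydrogenase and electron transfer genes, 2 of 12 later-step genes and 1 of 4 regulators. Without the array RA late HF 3 there were 13 (with ACSL1, ACADM, HADHB, ECHS1 and ECI1 added, against 3.61% of all genes). With RA and RV arrays of the same number paired there were 14 (with ACSL1, ACADM, HADHB, ECHS1, ACAA2 and PDK4 added, against 3.01% of all genes). The ACAT1 call remained under every array left out in turn. Of the other calls, that of MLYCD ended without RA early HF 3 or RV early HF 3, that of CD36 without RA early HF 3, RV early HF 2 or RV early HF 3, and that of ACADVL without any one of the 6 early HF arrays. Those of LPL, ACADS, ETFB and HADH ended without 5, 7, 4 and 4 single arrays, among them RA early HF 3 and RV early HF 3 for each. The CD36, ACADS and HADH calls also ended with only the RA and RV early HF arrays in the fit (adjusted p = 0.0647, 0.0876 and 0.0519), and the ACADS call with the mean of its probe sets (adjusted p = 0.126).

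In late HF no member passed the test between the chambers (limma, 5 members and 11% of all genes at an unadjusted p under 0.05), where 0.0273% of all genes were called. With all arrays, 26 of 34 members were below 0, where 48.6% of all genes were, with a median of -0.19. Without the array RA late HF 3 the median was -0.34 and 28 members were below 0, where 52.7% of all genes were. In that fit 1 member was called lower (ACAT1), against 0.919% of all genes. RA lay wholly below RV for 5 members with all arrays (6.76% of all genes) and for 18 without that array, where only 2 RA arrays remain (17.4% of all genes).

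**Figure D3:**
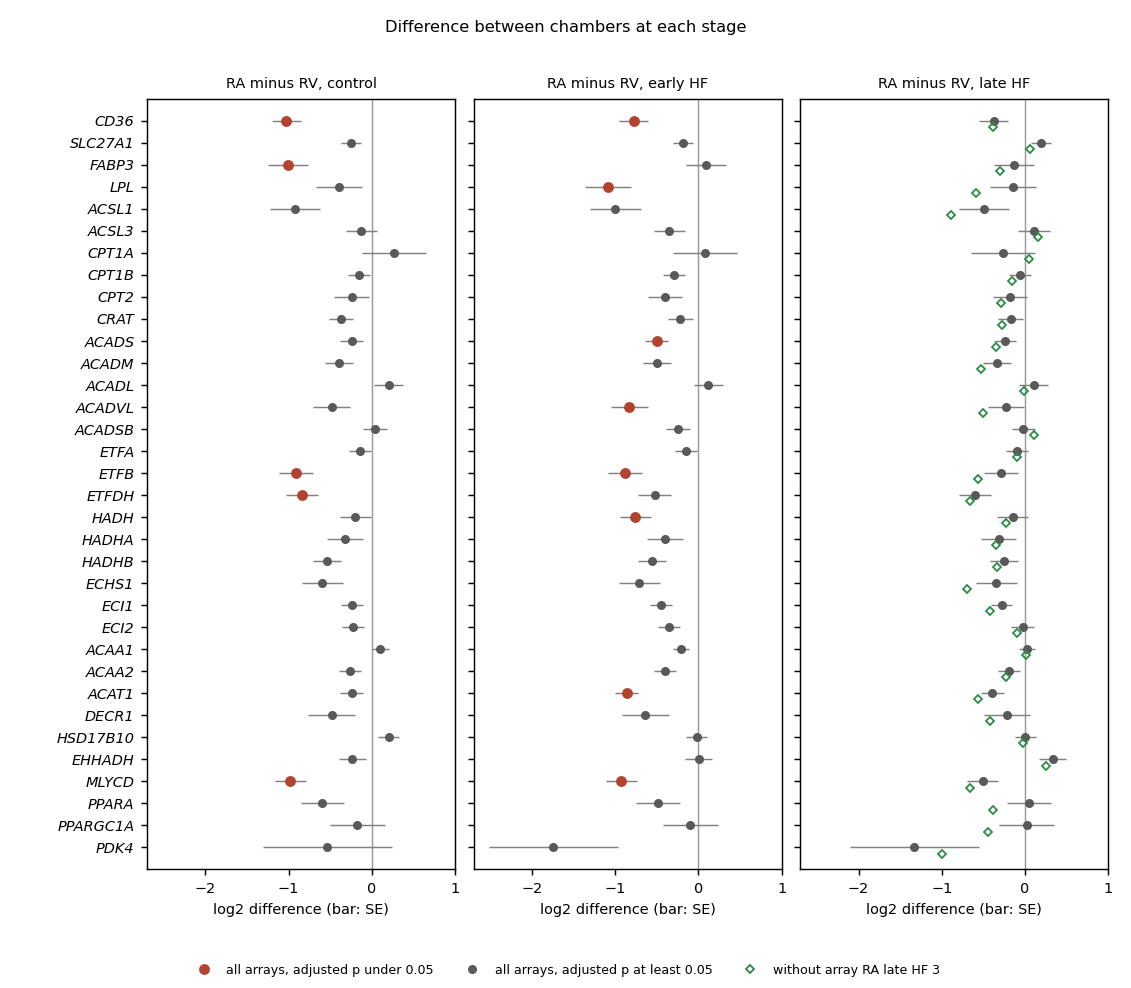
RA minus RV log2 difference of the 34 members tested in controls, early HF and late HF, with bars of 1 SE. Red points passed an adjusted p of 0.05, grey points did not, and open diamonds in late HF give the value without the array RA late HF 3. Most points lie left of 0 in controls and early HF.

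Marker levels of other cell types differed between the same groups. The 10 fibroblast markers tested averaged 0.65 to 1.59 above their 18-array means in RA early HF, between -0.13 and 0.13 in RA control, between -0.66 and -0.36 in RV early HF, and between -1.15 and -0.86 in RV control, and 8 of 10 were called higher in RA than in RV in early HF and 2 of 10 in controls. The 10 macrophage markers averaged 0.26 to 1.06 in RA early HF and -0.33 to -0.21 in RA control, and 5 of 10 were higher in RA than in RV in early HF, as were 3 of 6 smooth muscle markers. Between RA early HF and RA control 1 of 10 fibroblast markers, 0 of 10 macrophage markers, 0 of 8 endothelial markers and 2 of 6 smooth muscle markers were called higher with all arrays. The smooth muscle markers called were RGS5, at 1.05, and MYLK, at 1.60 (adjusted p = 0.0348 and 0.0213). In that comparison 9 of 10 fibroblast and 9 of 10 macrophage markers lay above control without overlap. Without the array RA late HF 3, when 3 members were called lower there, the counts called higher were 8 of 10, 4 of 10, 2 of 8 and 2 of 6 in the same order of lists. The 10 of 11 listed cardiomyocyte markers that were tested averaged -0.36 to -0.07 in RA early HF, 0.02 to 0.13 in RA control, 0.10 to 0.13 in RV early HF, against 0.12 to 0.18 in RV control. Of these markers TNNT2 was lower in RA early HF than in RA control, at -0.42 (adjusted p = 0.0389), and RYR2 too without the array RA late HF 3, at -0.83 (adjusted p = 0.0272). Between the chambers TNNC1 was lower in RA in controls, at -0.34 (adjusted p = 0.018), and in early HF TNNC1 and TNNI3 were lower in RA, at -0.27 and -0.45 (adjusted p = 0.0372 and 0.0193), and ACTC1 higher, at 0.30 (adjusted p = 0.0378). Adipocyte markers averaged 0.34 to 0.72 in RA control and -0.80 to -0.27 in RV control. Of them only RBP4 and SCD were called higher in RA controls, at 2.79 and 1.41 (adjusted p = 0.0423 and 0.00831), while PLIN1, PLIN4 and LIPE overlapped. ADIPOQ was not called, at 9.81 to 10.58 in RA control and 6.39 to 8.19 in RV control. It varied within RV HF groups, at 7.07, 10.87 and 7.01 in early HF and 10.64, 7.74 and 9.47 in late HF. In tissue RNA, fewer cells of a type and less RNA per cell cannot be told apart, and the part of these markers in the members' differences was not tested.

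**Figure D4:**
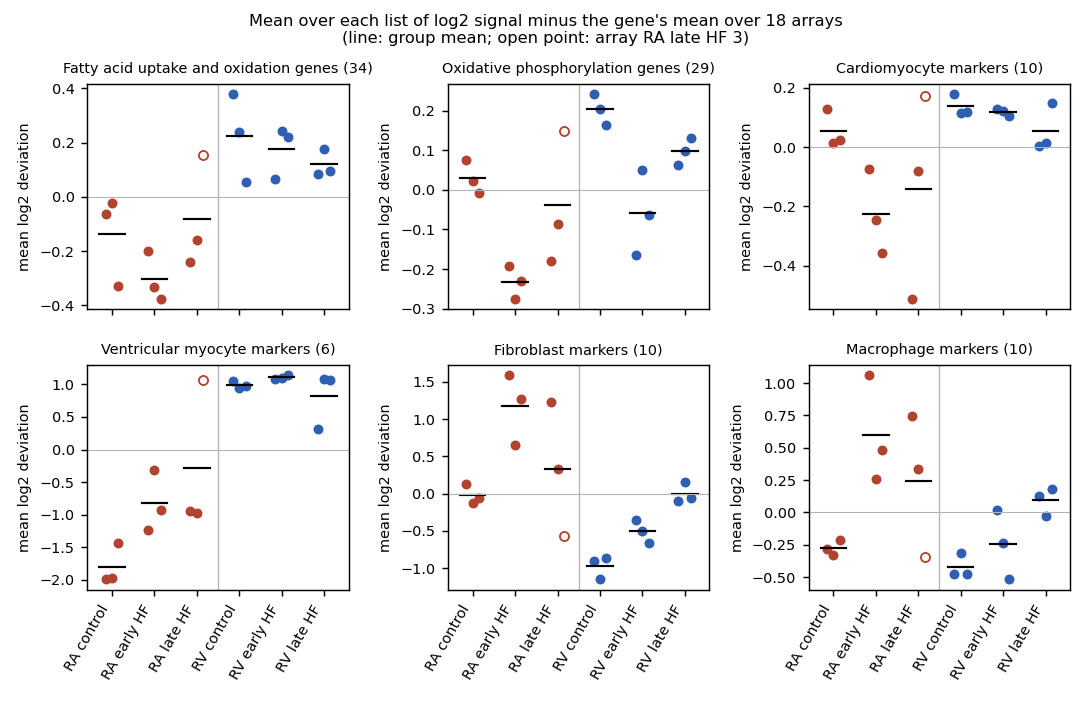
Mean over the genes of each list (number of genes in brackets) of log2 signal minus the gene's 18-array mean, for each array. RA groups (red) stand left of RV groups (blue), lines are group means and the open point is the array RA late HF 3. By group mean, fatty acid genes are lowest and fibroblast and macrophage markers highest in RA early HF. Single arrays of other RA groups lie within the RA early HF ranges, and a link between the lists was not tested.

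In RA, early HF against control gave 0 calls higher and 0 lower among the members (limma, 11 members and 13% of all genes at an unadjusted p under 0.05), where 0.746% of all genes were called. Of the members, 27 of 34 stood below control, where 53.9% of all genes did, with a median of -0.23 beside -0.02 for all genes. The groups did not overlap for 11 members below control (ACSL1, CPT1B, ACADS, ACADVL, HADHA, ECHS1, ECI1, ECI2, ACAA1, ACAT1 and HSD17B10; 9.45% of all genes) and for 2 above it (CD36 and FABP3; 8.66%). Later-step genes made up 7 of the 11. Uptake genes stood on both sides: 0.56 for CD36 and 0.86 for FABP3, against -0.58 for ACSL1. Without the array RA late HF 3, ACADS, ACADVL and ACAT1 were called lower, against 1.37% of all genes. That array is in neither group, so the differences were unchanged and only the estimate of spread shared by all groups moved. Leaving out RA late HF 1 instead also gave 3 calls.

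In RA late HF, 0 members were called higher and 0 lower (limma, 2 members and 9.97% of all genes at an unadjusted p under 0.05), where 0.0364% of all genes were called. The median was 0.01 with all arrays and -0.12 without the array RA late HF 3, when CD36 alone was called higher, against 1.04% of all genes. In that same fit 3 of 10 macrophage markers, 1 of 8 endothelial, 1 of 6 smooth muscle and 2 of 6 ventricular myocyte markers were called higher in RA late HF, 1 of 10 cardiomyocyte markers (RYR2) was called lower, and 0 of 10 fibroblast markers were called. RA late HF lay wholly above control for CD36 and ETFA (6.11% of all genes) and wholly below it for HSD17B10 (5.87%). Late minus early HF in RA gave 0 calls (limma, 12 members and 7.74% of all genes at an unadjusted p under 0.05; 0% of all genes called). Of the members, 30 of 34 stood higher in late than in early HF with all arrays and 24 without the array RA late HF 3, with medians of 0.25 and 0.19. Of all genes, 52% and 50.9% stood higher in the same fits. CPT2, ACADS and ETFB were the members wholly higher in late HF (5.06% of all genes).

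In RV, early HF gave 0 calls higher and 0 lower (limma, 5 members and 8.34% of all genes at an unadjusted p under 0.05), where 0.1% of all genes were called. Here 25 of 34 members stood below control, where 52.6% of all genes did, with a median of -0.14. CPT1B, ACADS, ETFDH, HADHB and PPARGC1A lay wholly below control (8.98% of all genes), and LPL, ACADSB and HADH wholly above (7.02%). In late HF there were again 0 calls (limma, 2 members and 9.1% of all genes at an unadjusted p under 0.05), where 0% of all genes were called. The median was -0.10, with 22 of 34 below control, where 52.9% of all genes were. Wholly below control were SLC27A1, ACSL1, CPT1B, ACADVL, ETFB, HADHB, EHHADH, PPARA and PPARGC1A (10.5% of all genes), and wholly above it ACADSB (9.48%). Late minus early HF in RV gave 0 calls (2 members and 5.21% of all genes at an unadjusted p under 0.05; 0% called), with SLC27A1, LPL, PPARA and PDK4 wholly lower in late HF (6.69% of all genes). Early and late HF share the control arrays of their chamber, and the late minus early contrast shares arrays with both.

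**Figure D5:**
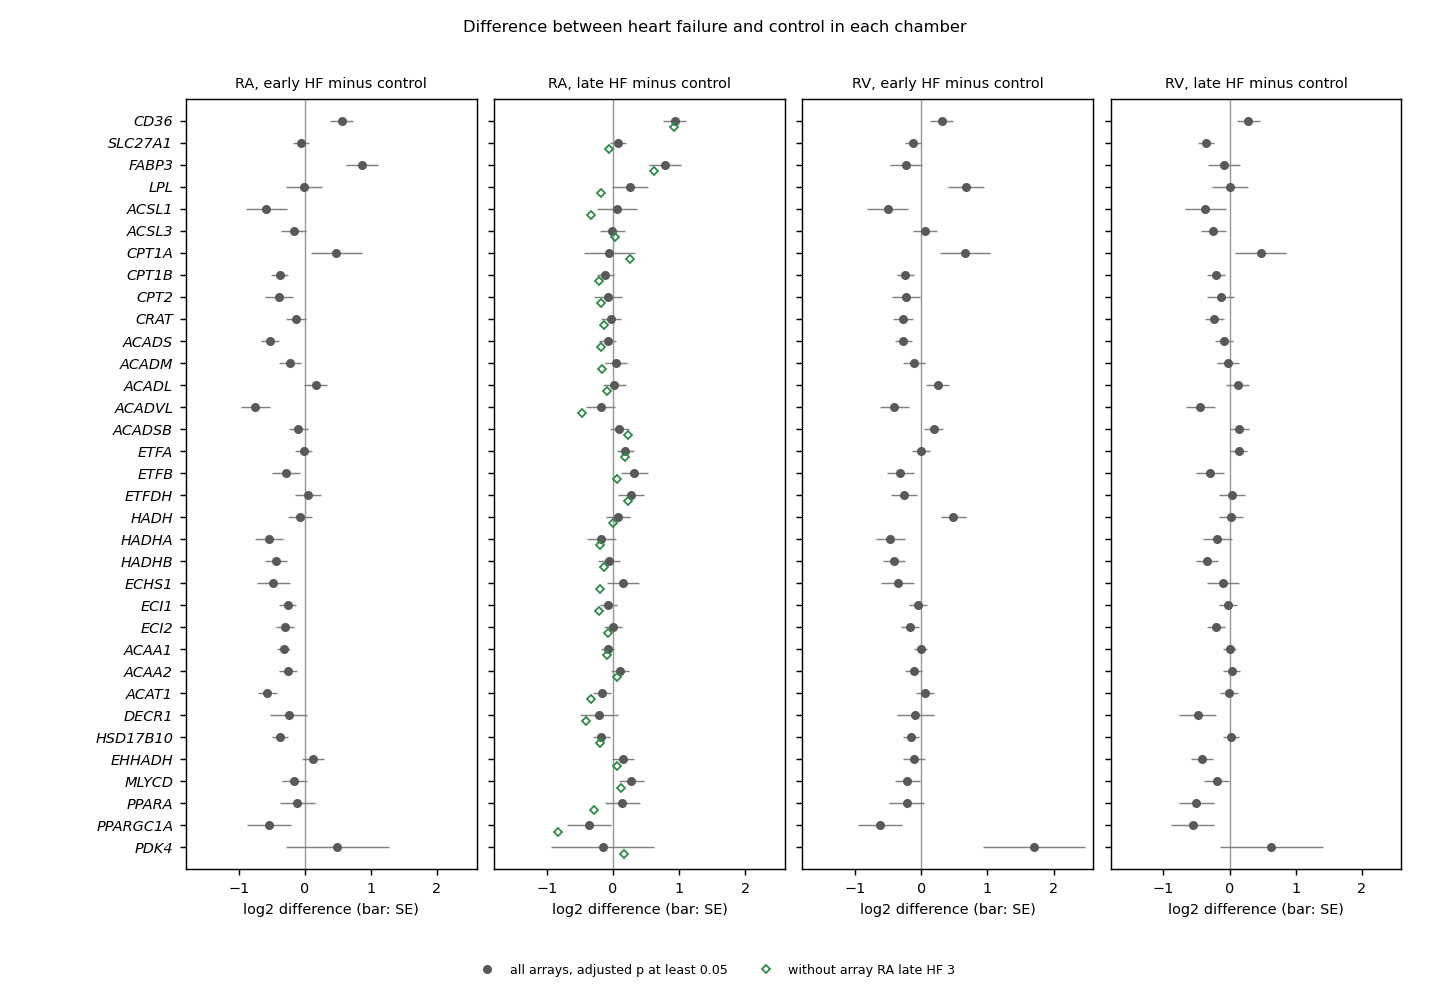
log2 difference between HF and control of the 34 members tested, early then late HF in RA and then in RV, with bars of 1 SE. No member passed an adjusted p of 0.05, and open diamonds give the value without the array RA late HF 3. In RA early HF most points lie left of 0, with CD36 and FABP3 to the right.

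Whether HF acted differently in the chambers was tested as the RA effect minus the RV effect. No member passed for early HF (limma, 4 members and 5.15% of all genes at an unadjusted p under 0.05; 0% of all genes called) or for late HF (5 members and 7.3%; 0% called). In early HF the widest differences were -1.21 (SE 1.10, adjusted p = 0.998) for PDK4, 1.09 (SE 0.34, adjusted p = 0.702) for FABP3, -0.69 (SE 0.39, adjusted p = 0.979) for LPL and -0.62 (SE 0.19, adjusted p = 0.702) for ACAT1. The median over members was -0.12 in early HF, with 24 of 34 below 0, where 50.4% of all genes were. In late HF it was 0.20 with all arrays and 0.01 without the array RA late HF 3. A chamber difference that passed in early HF and not in late HF is not shown to differ between the stages.

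Other energy genes stood beside these values. Of 29 respiratory chain and ATP synthase genes, 3 were lower in RA early HF than in RA control, NDUFS7 at -0.72, NDUFS8 at -0.61 and NDUFA13 at -0.41 (adjusted p = 0.0346, 0.0326 and 0.0348), all subunits of complex I, and 26 of 29 stood below control, where 53.9% of all genes did and 0.455% were called lower, with a median of -0.27. In RV early HF all 29 stood below control, 20 without overlap, where 52.6% and 8.98% of all genes did so, with a median of -0.25 and 0 calls (0.1% of all genes). Between the chambers in controls their median was -0.22 with 0 calls, and in early HF NDUFA8 was lower in RA, at -0.31 (adjusted p = 0.0251). Of 18 glycolysis genes, the phosphoglycerate mutase PGAM1 was higher in RA controls by 0.58 (adjusted p = 0.0154) and in RA early HF by 0.65 (adjusted p = 0.00699) than in RV, and its muscle form PGAM2 was lower than in RV in RA early HF, at -0.79 (adjusted p = 0.0189). The glycolysis medians were -0.04 in the control chamber comparison and -0.14 in RA early HF.

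Of 42 further genes of fatty acid handling tested, 2 were lower in RA controls and 5 in RA early HF than in RV, and 0 were higher at either stage, where 1.07% and 2.59% of all genes were called lower. UCP3, a mitochondrial carrier induced with fatty acid use, read 7.06, 6.00 and 5.54 in RA controls, against 10.08, 9.44 and 8.36 in RV controls, a difference of -3.09 (SE 0.71, adjusted p = 0.0264). No RA control array reached the lowest RV control array. BDH1, which oxidises ketone bodies, differed by -1.04 in controls and -1.08 in early HF (adjusted p = 0.0298 and 0.0177). PLIN2, which coats lipid droplets, read 8.28, 7.92 and 7.55 in RA early HF, against 9.47, 9.39 and 9.37 in RV early HF, a difference of -1.49 (SE 0.28, adjusted p = 0.00729). PRKAA2 (a catalytic subunit of AMP-activated kinase), PCCB (of propionyl-CoA carboxylase) and PDK1 (a pyruvate dehydrogenase kinase) were lower in RA early HF at -0.55, -0.46 and -0.44 (adjusted p = 0.0207, 0.0406 and 0.0326). None of the 42 was called in HF against control in either chamber with all arrays.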

How the data were processed

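Total RNA from 18 pieces of dog right atrium and right ventricle was labelled with biotin and read on Affymetrix Canine_2 arrays. Each deposited array holds signal per probe set on a log2 scale, as judged from the range of the values. MAS5 is named without a version in the submitters' processing notes, and its scale, target and any later step are not given in the sources used here. The array medians lay between 5.65 and 5.75, and no further normalization was applied. Groups came from the sample labels.

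Of 43035 probe sets, 111 controls and the 40% of the rest with the lowest mean signal were left out, and 25752 were tested with limma 3.58.1 in R 4.3.3. The fit had 1 mean for each of 6 groups, 12 residual degrees of freedom and a trended variance prior. Tests were two-sided, with Benjamini-Hochberg adjustment over all probe sets tested and a threshold of 0.05, for 11 comparisons. SE is that of the fit with 3 arrays a group. Symbols came from the platform annotation (29254 probe sets with a single symbol, 439 with several, 13231 with none), and the probe set of highest mean signal stood for a gene. The filter on the mean over all arrays can pass a gene through 1 high group, so counts over the 34 members describe those tested only. The array was designed on an older genome build, so no coordinates are given, and promoter sequences were not used here.

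The members, the lists and the rule for named genes were chosen with earlier results of these data known. Values on every array are given for members called in any comparison, for up to 6 members per comparison with the largest differences and no overlap, and for CD36, LPL, FABP3, CPT1B, CPT2, ACADM, ACADVL, HADHA, PDK4, PPARA and PPARGC1A. The other lists name only genes called, at most 6 a comparison.

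Replicate numbers were checked by correlating deviations from group means. For controls, RA and RV arrays that share a number gave r = 0.36, 0.24 and 0.42, and for early HF r = 0.17, 0.26 and 0.15. The numbers may therefore pair the chambers there, although the labels name no animal. The main fit left RA and RV arrays unpaired, so its SEs and calls between chambers take no account of such pairs. Only the alternative with a replicate block paired them. Late HF gave r = 0.05, -0.42 and 0.15 and no pairing. Alternatives included blocking on number, other filters, quantile normalization, array weights, other probe set choices and leaving out single arrays. For chamber comparisons the block paired RA and RV at every stage, late HF included, so its estimate of spread also rests on late HF pairs. For HF against control the block was the number within a chamber. The fit was tested on simulated data for RA early HF against control only, with independent noise. Those data held no RA and RV pairs and no array against its label, so the test does not speak to them. No pair of arrays was a copy, since 97.5% or more of values differed in each pair. Figures used Python 3.11.15 and matplotlib 3.10.9.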

Additional observations from a re-analysis of the deposited data

How the results depend on the processing

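The sign of 31 differences of single members was recomputed under the alternatives. They were picked because they were called with all arrays, without RA late HF 3 or with the replicate block. CD36 and FABP3 in RA HF against control were added whatever their p. Of the 31, 0 changed sign, although single other probe sets can differ in sign (PPARA in early HF). The alternatives refit the arrays that picked these differences, so the absence of sign changes was largely set in advance. Besides the main fit, shares of all genes called were computed only without RA late HF 3 and with the replicate block. The other counts of called members below have no such share beside them. The following counts and medians moved. With array weights, called members numbered 9 for RA against RV in controls, 15 in early HF and 11 in late HF, 6 for RA early HF against control (1 higher, 5 lower), 3 for RA late HF against control (1 higher, 2 lower) and 15 for RA late against early HF (13 higher, 2 lower). That estimate stopped before its tolerance and gave RA late HF 2 a weight of 17.97, against 0.253 to 1.759 on the other arrays, so it rests on 1 RA late HF array. With only the groups compared in the fit, 12 members were called between chambers in controls and 3 in RA early HF against control (1 higher, 2 lower), and the early HF chamber calls of CD36, ACADS and HADH ended. Without probe sets that may cross-hybridise, 3 of 30 members were called between chambers in controls, and the FABP3 call ended, as it did with the mean of its probe sets. With the RA and RV pairs as a replicate block, 7 members in controls and 14 in early HF were called, against 5 and 8. For HF against control the block was instead the replicate number within a chamber, and no call count of members changed. Arrays of a chamber that share a number gave r of -0.15 to 0.093 between HF and control. That block does not test a pairing of chambers.

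With 1 array left out at a time, the count of called members ran from 1 to 7 for RA against RV in controls, 1 to 13 in early HF and 0 to 1 in late HF, 0 to 3 for RA early HF and 0 to 1 for RA late HF against control. The lowest counts came without RV control 1 or RV control 2 in controls, and without RA early HF 3 or RV early HF 3 in early HF. The count of 13 came without RA late HF 1 or RA late HF 3, as did the 3 calls in RA early HF. The members' median difference ran from -0.34 to -0.10 for RA against RV in late HF, from -0.12 to 0.10 for RA late HF against control, from 0.19 to 0.38 for RA late against early HF and from -0.10 to 0.085 for RV late against early HF. The median chamber difference in the late HF effect, 0.20 with all arrays, was 0.060 with array weights, 0.068 without probe sets that may cross-hybridise and 0.013 to 0.22 with 1 array left out. The cause was not tested for any of these.

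Over all probe sets, calls without RA late HF 3 numbered 1458 against 748 with all arrays for the chambers in controls, 2316 against 1454 in early HF and 811 against 7 in late HF. They numbered 829 against 209 for RA early HF, 425 against 18 for RA late HF, 139 against 27 for RV early HF and 34 against 0 for RV late HF. With 3 arrays a group the number of arrays limits the precision, and low-signal members lay outside every test.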
